A study of Mus musculus with 6 samples.

Results

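The 10 genes described here are Fos, Fosb, Junb, Egr1, Egr2, Egr4, Arc, Npas4, Nr4a1 and Dusp1, a fixed list of immediate early genes that are induced by neuronal activity. They were chosen by name and matched by symbol, and all 10 were found among the 54838 genes of the count table and all 10 were among the 19087 genes with enough fragments for testing. RNAseq was performed on hippocampi of 3 wild-type and 3 FVB/NJ-Tg(ORAI1)Ibd females aged 7 months, with 1 library per mouse. All 6 mice were of the FVB/NJ background and received no treatment that the labels or the methods name. The transgenic mice carry a human ORAI1 coding sequence in a mouse Thy1.2 cassette, which directs expression to neurons, so a whole hippocampus mixes neurons that may hold the transgene with glial and vascular cells that are not its target. ORAI1 is a calcium channel of the plasma membrane that opens when the calcium stores of the endoplasmic reticulum are emptied. How the mice were handled before dissection and at what time of day the tissue was taken are not given in the sources used here.

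Immediate early genes are transcribed within minutes of synaptic activity, without new protein synthesis, and their mRNAs decay quickly. Calcium entering through synaptic receptors and voltage-gated channels activates kinases and phosphatases that act on transcription factors already bound to the promoters, such as CREB at the cAMP response element (CRE) and SRF with its ELK partners at the serum response element. In the hippocampus these mRNAs are widely used as markers of recently active neurons, since they are low at rest and rise after exploration, learning or seizures. Most of the 10 encode transcription factors, whereas Arc encodes a synaptic protein and Dusp1 a phosphatase.

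Promoter sequences of 8 of the 10 genes were at hand from RefSeq (build GRCm38.p6), as windows from 250 bases before to 50 bases after the start of transcription. All 8 windows, those of Fos, Fosb, Junb, Egr2, Egr4, Npas4, Nr4a1 and Dusp1, held at least 1 copy of TGACG, the core of the CRE, on either strand, against 20.8% of the 32851 promoter windows of the genome. In the Npas4 window the start lies 345 bases from the principal annotated start. Its 250 bases before that start are all in annotated exons of the gene, so its cores are in exon sequence. The full palindrome TGACGTCA, which overlaps the core, was found in Dusp1 alone among the 8 and in 1.79% of all windows. For 4 genes the longest stretch before the start with no base in an annotated exon of the gene is shown. These include the genes with the widest (Egr2) and the narrowest (Dusp1) range between mice. They also include those with the full palindrome (Dusp1) and with the most CRE cores (Nr4a1). The stretches of Egr2, Nr4a1 and Dusp1 lie within the annotated span of their gene, and that of Fos lies upstream of it. Each is written 5′ to 3′ on the strand of its gene, with the CRE cores of either strand in capitals: Fos (chr12:85473640-85473889, plus strand), Egr2 (chr10:67537619-67537868, plus strand), Nr4a1 (chr15:101266596-101266845, plus strand) and Dusp1 (chr17:26508520-26508722, minus strand).
Fos: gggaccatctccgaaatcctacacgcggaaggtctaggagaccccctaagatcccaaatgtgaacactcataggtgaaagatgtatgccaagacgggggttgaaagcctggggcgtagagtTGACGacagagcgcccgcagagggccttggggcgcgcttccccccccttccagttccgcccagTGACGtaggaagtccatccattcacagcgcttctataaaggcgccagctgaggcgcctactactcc
Egr2: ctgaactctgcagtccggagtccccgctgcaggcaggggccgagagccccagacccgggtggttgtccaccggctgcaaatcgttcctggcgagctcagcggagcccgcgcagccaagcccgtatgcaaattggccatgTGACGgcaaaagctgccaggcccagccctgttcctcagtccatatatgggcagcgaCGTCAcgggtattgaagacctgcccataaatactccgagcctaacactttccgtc
Nr4a1: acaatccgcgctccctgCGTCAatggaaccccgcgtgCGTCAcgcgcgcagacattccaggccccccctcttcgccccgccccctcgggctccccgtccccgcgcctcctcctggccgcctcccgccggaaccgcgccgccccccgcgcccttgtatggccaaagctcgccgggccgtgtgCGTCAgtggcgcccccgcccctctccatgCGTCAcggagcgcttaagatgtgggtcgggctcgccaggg
Dusp1: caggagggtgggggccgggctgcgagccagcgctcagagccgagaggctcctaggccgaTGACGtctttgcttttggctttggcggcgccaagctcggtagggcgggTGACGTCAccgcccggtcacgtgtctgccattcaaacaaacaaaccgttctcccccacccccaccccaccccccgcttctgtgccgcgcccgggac

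In the Fos stretch the cores began at positions −129 and −66 from the start, and a TATAAA at −33. Nr4a1 held the most cores, beginning at −233, −213, −69 and −40. Egr2 had 1 core on either side of its CArG box (CC, a run of A or T, and GG), the binding sequence of SRF, which 1.63% of all windows contained. The palindrome of Dusp1 lay from −143 to −136. The EGR sequence GCGGGGGCG was present in Fosb and Nr4a1 and in 2.91% of windows, TATAAA in Fos and Junb and in 13.6% (in Junb just after the RefSeq start), and the AP-1 sequence (TGACTCA or TGAGTCA) in none of the 8 and in 5.2%. These are matches of letters in short windows and not measurements of binding.

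**Figure D1:**
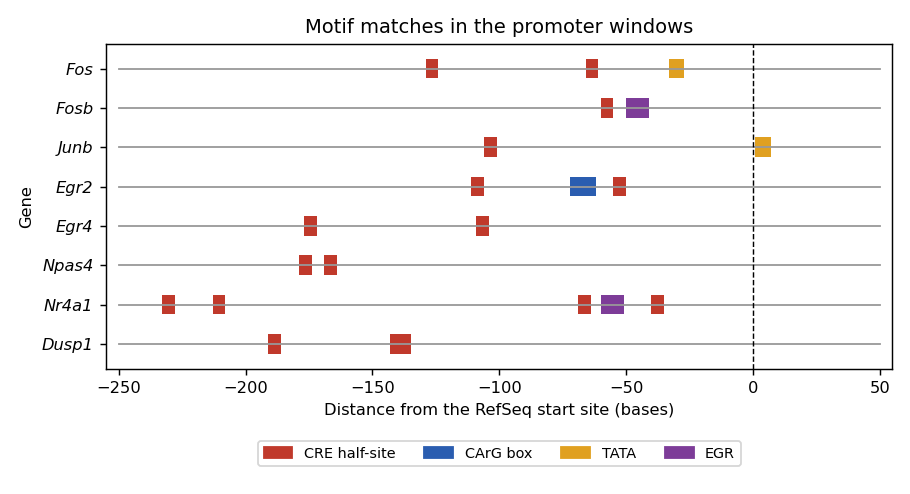
Positions of motif matches on either strand in the promoter windows of 8 immediate early genes, with distance from the RefSeq start site in bases on the x axis and 1 line per gene. Coloured blocks are the CRE core TGACG (drawn as CRE half-site), the CArG box, TATAAA and the EGR sequence; every line holds at least 1 CRE core, and Nr4a1 holds 4.

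Library totals ran from 37414241 to 52497799 fragments, so even the rarest of the 10 mRNAs, Egr2, was represented by 24 to 199 fragments per library and the others by 148 or more. Levels are given below as CPM, counts per 1000000 fragments of a library after TMM scaling, and the difference between genotypes as a log2 fold change (transgenic minus wild-type) with its standard error (SE) from edgeR's quasi-likelihood test, with p-values adjusted over all 19087 genes. The genotype labels were borne out by Orai1, which the transgenic libraries contained at 320.2 ± 9.54 CPM and the wild-type libraries at 7.47 ± 0.528 CPM (SD, n = 3 each). These fragments were assigned to mouse Orai1 while the transgene is human, so the transgenic value does not separate the mouse gene from the transgene. Markers of excitatory neurons, dentate granule cells and CA1 and CA3 pyramidal cells were present in all libraries. With 3 mice per genotype, an exact permutation test of a single gene could not give a p below 0.1.

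None of the 10 genes passed the threshold of an adjusted p of 0.05 between genotypes, where 7.10% of all genes tested did, 3.10% with a higher level in the transgenic mice. At an unadjusted p under 0.05 there was 1 of them, Fosb, against 27.8% of all genes. The same counts, 0 and 1, came from DESeq2's Wald test (lowest adjusted p = 0.109), for which 11.7% of all genes passed the adjusted and 23.7% the unadjusted threshold, and from limma-voom (lowest adjusted p = 0.168), with 6.61% and 28.1%. All 10 log2 fold changes were above 0, between 0.11 and 0.91 with a median of 0.25, whereas 48.3% of all genes had a value above 0 and their median was −0.01. The values of the 2 genotypes overlapped for each of the 10 genes, while for 34.9% of all genes they did not overlap, 16.9% with all transgenic above all wild-type mice. The 10 values are not 10 independent readings, because the same mice were high or low for most of these genes.

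**Figure D2:**
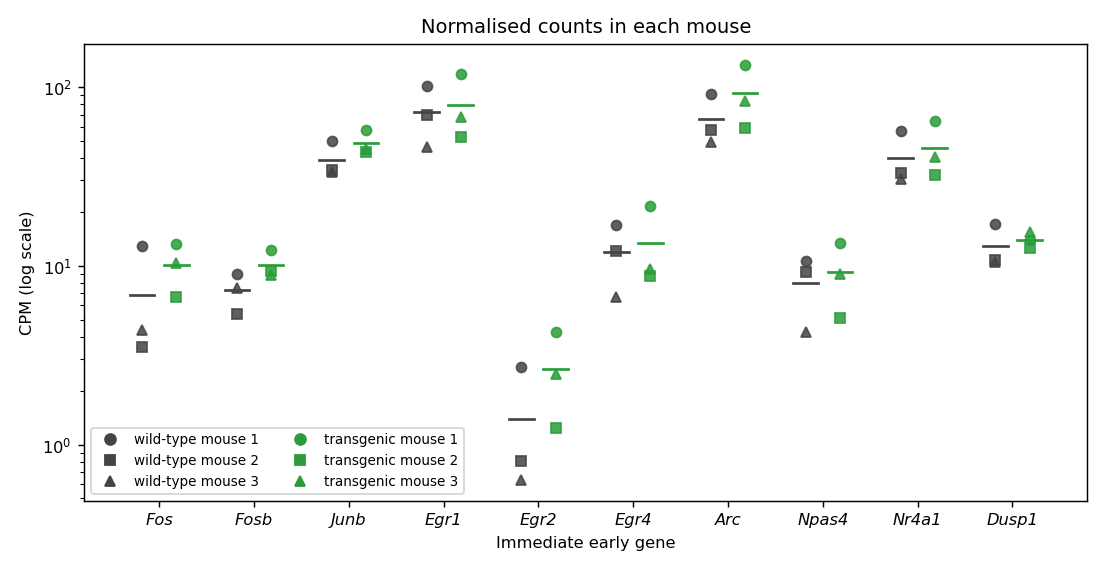
Normalised counts (CPM, log scale) of the 10 immediate early genes in each of 6 mice. Symbols mark the mouse number, grey the wild-type and green the transgenic mice, and horizontal lines the mean of 3 mice; transgenic mouse 1 is the highest point for 9 of the 10 genes.

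Fos, Fosb and Junb encode subunits of the AP-1 transcription factor, in which a FOS protein pairs with a JUN protein on DNA. Fos, the gene most often used to mark active neurons, was present at 12.8, 3.51 and 4.36 CPM in wild-type mice 1, 2 and 3 and at 13.2, 6.66 and 10.4 CPM in transgenic mice 1, 2 and 3. Wild-type mouse 1 thus stood within the transgenic range, and the other two wild-type mice lay below all transgenic mice. The means were 6.90 ± 5.16 and 10.1 ± 3.27 CPM (SD, n = 3 each), and the log2 fold change of 0.53 (SE 0.48, adjusted p = 0.517) left room for anything from a 0.664-fold to a 3.15-fold level in the transgenic mice (95% interval).

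Fosb, whose splice forms include the long-lived ΔFOSB, was at 9.04, 5.38 and 7.48 CPM in the wild-type and at 12.3, 9.30 and 8.89 CPM in the transgenic mice. Only wild-type mouse 1 reached into the transgenic range, above transgenic mouse 3. Its log2 fold change of 0.48 (SE 0.20) came with the smallest p of the 10 genes, an unadjusted p of 0.049 from edgeR's quasi-likelihood test and an adjusted p of 0.177, and its 95% interval ran from 1.00-fold to 1.93-fold. An exact two-sided permutation test of its CPM gave p = 0.2.

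Junb, which can restrain AP-1 activity in place of JUN, was at 49.6, 34.4 and 33.5 CPM in the wild-type and at 57.5, 43.3 and 45.0 CPM in the transgenic mice. As for Fos, 2 wild-type mice lay below all transgenic mice and wild-type mouse 1 lay within their range. The log2 fold change was 0.31 (SE 0.17, adjusted p = 0.279), and it was 0.16 with the trend of counts on the GC content of transcripts removed from each library. Junb overlaps Prdx2 on the opposite strand, and the counting used strand.

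The EGR genes encode zinc finger transcription factors that bind GC-rich sites. Egr1, also called Zif268 and needed for lasting hippocampal memory, was at 101, 69.6 and 46.0 CPM in the wild-type and at 117, 52.5 and 68.0 CPM in the transgenic mice. The genotypes were interleaved, since transgenic mice 2 and 3 both lay between the lowest and the middle wild-type mouse. Its log2 fold change of 0.13 (SE 0.35, adjusted p = 0.841) had a 95% interval from 0.626-fold to 1.92-fold.

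Egr2, also called Krox20 and best known for its part in myelination and hindbrain patterning, was the rarest of the 10. It was at 2.73, 0.806 and 0.634 CPM (143, 34 and 24 fragments) in the wild-type and at 4.27, 1.23 and 2.48 CPM (199, 47 and 93 fragments) in the transgenic mice. Wild-type mouse 1 again stood with the transgenic mice, above 2 of them. The log2 fold change, 0.91, was the largest of the 10 and also the least precise (SE 0.61, adjusted p = 0.373), with a 95% interval from 0.702-fold to 5.02-fold.

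Egr4 was at 16.8, 12.1 and 6.66 CPM in the wild-type and at 21.7, 8.78 and 9.56 CPM in the transgenic mice. As with Egr1, the middle wild-type mouse exceeded transgenic mice 2 and 3. The log2 fold change of 0.17 (SE 0.42, adjusted p = 0.831) lay within its error. It fell to −0.07 when the trend of counts with the GC content of the transcript was removed from each library, and the transcript of Egr4 has the highest GC content of the 10, 68.2%.

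Npas4 encodes a neuronal transcription factor that responds to calcium entry and acts on inhibitory synapses. It was at 10.6, 9.24 and 4.25 CPM in the wild-type and at 13.4, 5.14 and 9.001 CPM in the transgenic mice. Wild-type mouse 3 was the lowest of all 6 and transgenic mouse 2 came next, so that each genotype contributed 1 mouse with a low level. The log2 fold change was 0.19 (SE 0.40, adjusted p = 0.799).

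Nr4a1 (Nur77) encodes an orphan nuclear receptor. It was at 56.4, 33.0 and 30.5 CPM in the wild-type and at 64.1, 32.2 and 40.6 CPM in the transgenic mice. Mouse 1 of each genotype was well above the rest, and the other 4 mice mixed. Its log2 fold change was 0.19 (SE 0.30, adjusted p = 0.723).

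Arc encodes a protein of the postsynaptic site that promotes the removal of AMPA receptors and whose mRNA travels into dendrites. It was at 90.8, 57.7 and 49.2 CPM in the wild-type and at 133, 59.2 and 83.8 CPM in the transgenic mice. Transgenic mouse 1 stood above all others, and transgenic mouse 2 was close to wild-type mouse 2. The means of 65.9 ± 22.0 and 92.0 ± 37.6 CPM (SD, n = 3 each) gave a log2 fold change of 0.48 (SE 0.32, adjusted p = 0.368), with a 95% interval from 0.835-fold to 2.33-fold. The paper's real-time PCR gave a lower Arc value in transgenic hippocampi, and Arc was not among the genes it reported as changed.

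Dusp1 encodes a nuclear phosphatase that switches off MAP kinases, among them ERK, p38 and JNK, and so limits the response that induced it. It was at 17.2, 10.7 and 10.5 CPM in the wild-type and at 13.9, 12.5 and 15.5 CPM in the transgenic mice. Here the highest of the 6 was wild-type mouse 1, and the transgenic mice fell between it and the other 2 wild-type mice. The log2 fold change of 0.11 (SE 0.19, adjusted p = 0.743) was the smallest of the 10, with a 95% interval from 0.791-fold to 1.48-fold. Two-sided exact permutation tests of the CPM of the 10 genes gave p-values from 0.2 to 0.8.

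**Figure D3:**
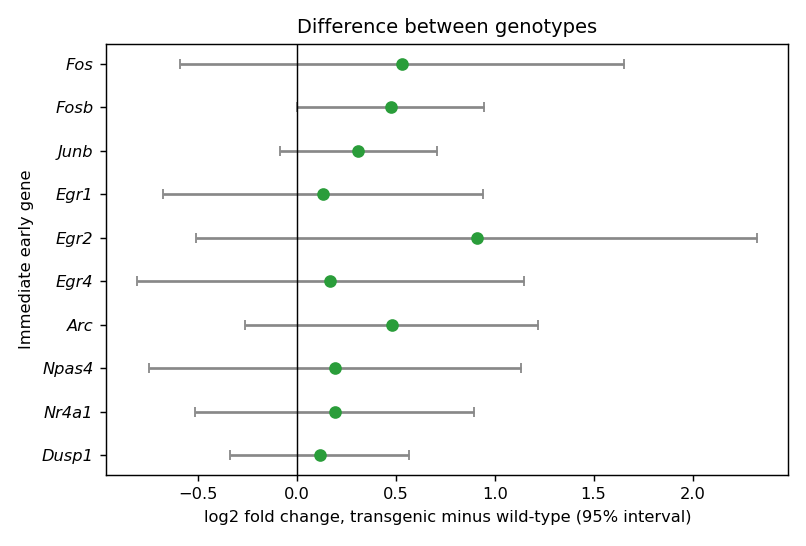
Log2 fold change (transgenic minus wild-type, x axis) of the 10 immediate early genes with 95% intervals from edgeR's quasi-likelihood fit. All 10 points lie above 0, from 0.11 to 0.91, and the interval of Fosb alone excludes 0, by a margin too small to see.

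For 5 of the 10 genes, Egr1, Egr4, Npas4, Nr4a1 and Dusp1, the sign of the difference changed when 1 mouse was left out, and for Fos, Fosb, Junb, Egr2 and Arc it did not. Without transgenic mouse 1, 6 of the 10 log2 fold changes were above 0 and their median was 0.11, and without wild-type mouse 3 also 6 were, with a median of 0.13. Without wild-type mouse 1 all 10 were above 0 and the median was 0.54. In none of the 6 fits with 1 mouse left out did any of the 10 genes pass the threshold.

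Levels of these mRNAs varied widely between mice of the same genotype. The SD of log2 CPM between mice of one genotype had a median of 0.55 over the 10 genes, against 0.12 over all genes tested, that is a typical factor of 1.09 for the median gene. It was 0.99 for Egr2, 0.79 for Fos, 0.70 for Npas4 and Egr4, 0.58 for Egr1, 0.53 for Arc, 0.49 for Nr4a1, 0.32 for Fosb, 0.30 for Dusp1 and 0.27 for Junb. Of the 10 genes, 5 were among the 5% of all genes with the largest SD and 7 among the top 10%. Rare mRNAs scatter more through counting alone, so each gene was also set beside the genes at its own level or higher, and between 0.117% (Egr1; 4 of 3431 genes) and 2.66% (Fosb; 294 of 11059) of these had a larger SD. The ratio of the highest to the lowest of the 6 mice ran from 1.63 for Dusp1 to 6.73 for Egr2.

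The count of 5 depended on mouse 1. Without wild-type mouse 1, 3 of the 10 genes were among the 5% with the largest SD, and without mouse 1 of both genotypes 2 were.

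**Figure D4:**
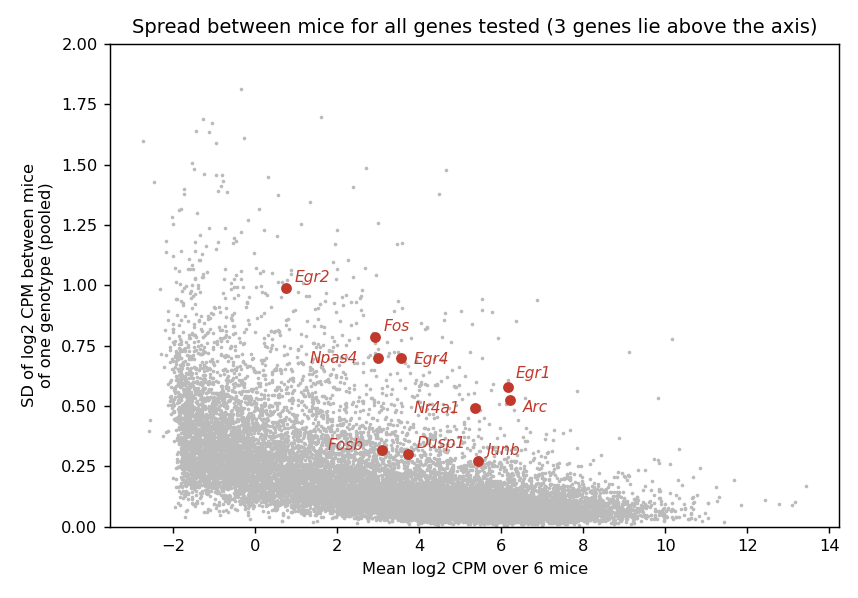
SD of log2 CPM between mice of one genotype (y axis, pooled over both genotypes) against mean log2 CPM over 6 mice (x axis) for the 19087 genes tested, with the 10 immediate early genes in red. The red points lie in the upper part of the cloud at their level or above it, from 0.27 for Junb to 0.99 for Egr2, and 3 grey points lie beyond the axis.

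The 10 genes ranked the mice in much the same way. Wild-type mouse 1 had the highest level of its genotype for all 10 genes and transgenic mouse 1 for 9 of 10, the exception being Dusp1, for which it was transgenic mouse 3. Wild-type mouse 3 was the lowest of its genotype for 8 genes (wild-type mouse 2 for Fos and Fosb), and transgenic mouse 2 was the lowest for 9 (transgenic mouse 3 for Fosb). Relative to each gene's mean over the 6 mice, the median deviation on the log2 scale was 0.73 in transgenic mouse 1 and 0.43 in wild-type mouse 1. It was 0.12 in transgenic mouse 3, −0.32 in wild-type mouse 2, −0.34 in transgenic mouse 2 and −0.62 in wild-type mouse 3. Mouse numbers name animals within a genotype and gave no order.

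**Figure D5:**
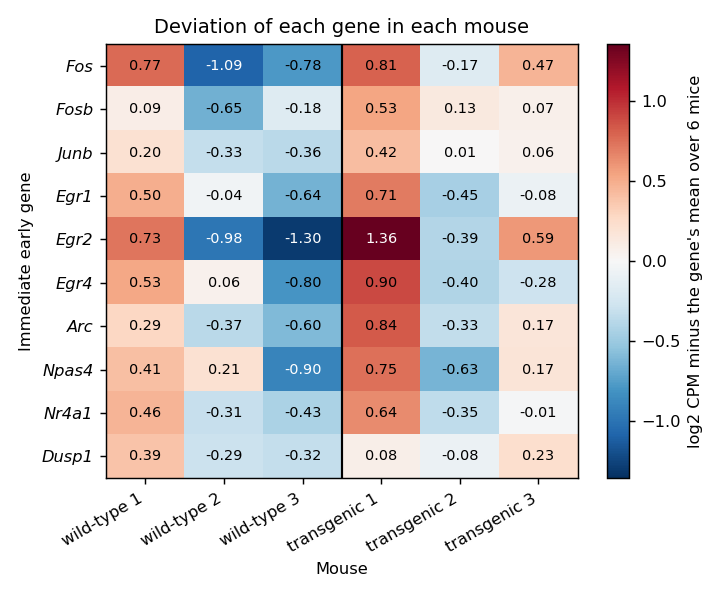
Log2 CPM of each immediate early gene (rows) in each mouse (columns) minus the gene's mean over the 6 mice, with red above and blue below the mean and the value in each cell. Mouse 1 of each genotype is above the mean for all 10 genes, and wild-type mouse 3 is below it for all 10.

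Markers of other cells differed between the same mice. The summed CPM of 5 astrocyte markers was 1411, 1427 and 2109 in the wild-type and 1381, 2108 and 1994 in the transgenic mice, and that of 6 microglial markers was 261.8, 279.3 and 347.2 and then 253.4, 376.5 and 361.1. Both sums were therefore low in mouse 1 of each genotype and in wild-type mouse 2, and high in wild-type mouse 3 and in transgenic mice 2 and 3. Among the astrocyte markers Gfap had the widest range (322.9 to 835.8 CPM in the wild-type and 385.6 to 921.9 CPM in the transgenic mice). Aqp4 came next (157.2 to 240.5, then 124.2 to 220.3 CPM). Slc1a3 (615.2 to 714.8, then 587.0 to 641.2 CPM), Gja1 and Aldh1l1 varied less, so the astrocyte sum does not describe all 5 markers alike. Markers of excitatory neurons (5887, 6056 and 5999 CPM, then 6961, 6233 and 6238 CPM) were highest in transgenic mouse 1, and 2 of the 5, Slc17a7 and Neurod2, rose in the transgenic mice (log2 fold change 0.26 and 0.32), beside 3.10% of all genes, while Nrgn (0.24, adjusted p = 0.113), Camk2a (0.04, adjusted p = 0.791) and Neurod6 (−0.14, adjusted p = 0.220) did not pass. All 12 markers of the choroid plexus, the epithelium that makes cerebrospinal fluid, were lower in the transgenic mice, with sums of 2452 to 4400 CPM in the wild-type and 249.2 to 477.1 CPM in the transgenic mice. The summed CPM of 3 CA1 pyramidal markers was highest in mouse 1 of each genotype (298.8, 288.9 and 270.8, then 346.3, 286.3 and 275.3), and that of 5 meningeal fibroblast markers was 154.6, 138.0 and 208.6 in the wild-type and 98.9, 270.2 and 158.8 in the transgenic mice, lowest in transgenic mouse 1 and highest in transgenic mouse 2. In the remaining marker lists 1 inhibitory marker (Gad2) was lower and 1 endothelial marker (Cldn5) higher, beside 7.10% of all genes called in either direction, and no marker was at 0 in any list. The summed CPM of 5 inhibitory markers was 784.4, 755.2 and 620.8 in the wild-type and 673.8, 567.2 and 528.9 in the transgenic mice, highest in mouse 1 of each genotype. Sums of 5 dentate granule markers were 336.4 to 343.8 CPM in the wild-type and 365.1 to 390.7 CPM in the transgenic mice. Those of 3 CA3 markers were 107.2 to 112.2 and 112.7 to 126.1 CPM. Both sums were higher in all transgenic than in all wild-type mice, though no marker of either list passed the threshold. Endothelial sums (136.4, 132.2 and 149.3, then 136.7, 182.2 and 156.1 CPM) were low and high in the same mice as the astrocyte and microglial sums. So were the meningeal fibroblast sums. Oligodendrocyte sums (3668, 4334 and 4935, then 4756, 4717 and 5191 CPM) also differed between mice, without that split. The part of these differences in the levels of the immediate early genes was not tested. In bulk RNA from a whole hippocampus, fewer cells of a type and less RNA per cell cannot be told apart.

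Per length of transcript, with fragments divided by exonic length and library total (FPKM), the wild-type means placed Arc first with 21.6 ± 7.12 (SD, n = 3), followed by Junb (17.0 ± 3.88), Egr1 (16.1 ± 6.13) and Nr4a1 (11.4 ± 4.03). A middle group held Egr4 (5.52 ± 2.35), Dusp1 (4.76 ± 1.40), Fos (2.93 ± 2.18) and Npas4 (2.45 ± 1.02), and Fosb (1.17 ± 0.292) and Egr2 (0.409 ± 0.341) were lowest. The steps from Arc to Junb, from Egr1 to Nr4a1, from Nr4a1 to Egr4, from Npas4 to Fosb and from Fosb to Egr2 were seen in all 6 mice. Junb exceeded Egr1, and Egr4 exceeded Dusp1, in 3 of 6 mice each, so these neighbours were not ordered. Dusp1 exceeded Fos, and Fos exceeded Npas4, in 5 of 6 mice.

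Each gene was also set relative to the other 9 in the same library, as its log2 CPM minus their mean. On this scale Arc had an SD of 0.11 among wild-type and 0.11 among transgenic mice, and Nr4a1 0.10 and 0.05. Nr4a1 was the only gene of the 10 whose genotypes then did not overlap, whereas for 34.9% of all genes the CPM of the genotypes did not. Its relative levels were 1.51, 1.56 and 1.71 in the wild-type and 1.42, 1.40 and 1.32 in the transgenic mice. The difference of −0.22 gave an exact two-sided permutation p of 0.1, the smallest possible, and 0.667 after adjustment over the 10 genes. Arc itself differed by 0.08 (p = 0.5 in the same exact permutation test).

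Ratios of counts between 2 genes of the same library were compared for all 45 pairs. In 2 of them the genotypes did not overlap, whereas for 34.9% of all genes the CPM of the genotypes did not. For Egr1 over Arc the ratio was 1.12, 1.21 and 0.934 in the wild-type and 0.882, 0.888 and 0.812 in the transgenic mice, and for Arc over Nr4a1 it was 1.61, 1.75 and 1.61 and then 2.08, 1.84 and 2.06. Both gave an exact permutation p of 0.1, the smallest that 3 against 3 mice allow (0.818 after adjustment over 45 pairs), so this test could call no pair.

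The pattern over the 6 mice was compared with that of all genes tested, by the root mean square difference of log2 CPM after each gene was centred on its own mean. The closest pairs within the list were Egr1 and Egr4 (0.139), Arc and Nr4a1 (0.149) and Egr1 and Nr4a1 (0.152), and the farthest was Egr2 and Dusp1 (0.756). Egr1 had Egr4 and Nr4a1 as its nearest genes in the whole table, and Egr4 had Egr1 and Epop. Nr4a1 was nearest to Gm13844 and Arc, and Arc to Gm29797 and Nr4a1. Gm13844 (0.581 to 1.14 CPM) and Gm29797 (0.317 to 1.14 CPM) were rare. These likenesses are descriptions over 6 libraries that share mouse, dissection and depth.

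Fos was nearest to 1700016P03Rik (0.173) and then to Tomt, which was rare (0.0948 to 0.363 CPM). 1700016P03Rik is a long non-coding transcript on chr11 (75172560-75177633, plus strand) whose annotated span contains the genes of the microRNAs Mir212 and Mir132. Egr2 was also nearest to 1700016P03Rik (0.239) and then to Fos. This transcript ranged from 1.85 to 7.80 CPM over the 6 mice, with a log2 fold change of 0.72 (SE 0.48, adjusted p = 0.375). Npas4 was nearest to Epop (0.173), which also stood next to Egr4, and then to Gm10184, which was rare (0.185 to 0.493 CPM). Epop encodes a protein that associates with Polycomb repressive complex PRC2 and ranged from 8.72 to 25.8 CPM.

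For the less variable genes a near neighbour says little. Within a distance of 0.25 lay 3900 genes for Junb, 3154 for Dusp1 and 341 for Fosb, but 50 for Nr4a1, 21 for Egr1, 12 for Arc, 9 for Egr4, 7 for Npas4, 2 for Fos and 1 for Egr2. The nearest genes were Gm42778 and Mapk11 for Junb, 6330537M06Rik and 2610316D01Rik for Dusp1, and Rpsa-ps9 and Dnd1 for Fosb, of which only Mapk11, encoding p38 beta, exceeded 5 CPM.

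Among close relatives of the 10 genes (other FOS, JUN, EGR, NR4A, NAB and DUSP genes), 0 of 12 tested passed the adjusted threshold by edgeR's quasi-likelihood test, 1 did at an unadjusted p under 0.05 (7.10% and 27.8% of all genes), and the median log2 fold change was 0.08. That 1 gene was Nab2, which encodes a corepressor of EGR proteins and is itself induced by them. It was at 38.6, 37.2 and 33.5 CPM in the wild-type and at 49.4, 40.7 and 44.6 CPM in the transgenic mice, without overlap, as for 34.9% of all genes (log2 fold change 0.30, SE 0.08, adjusted p = 0.070), and DESeq2's Wald test gave it an adjusted p of 0.023, while with GC offsets its log2 fold change was 0.20 (adjusted p = 0.222). Jund, the JUN gene with steady expression, had a log2 fold change of 0.10 (adjusted p = 0.249) that turned to −0.105 with GC offsets, and Dusp4, a nuclear phosphatase of ERK, had −0.21 (adjusted p = 0.295). Fosl1 was too rare to test.

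Of 34 other immediate early genes, 1 was higher and 0 were lower, beside 3.10% of all genes higher and 7.10% called in either direction, and the median log2 fold change was −0.05. The gene that rose was Nfil3, encoding a bZIP repressor linked to the circadian clock and to immune cells, at 6.75 ± 0.325 CPM in the wild-type and 11.3 ± 1.97 CPM in the transgenic mice (log2 fold change 0.75, SE 0.13, adjusted p = 0.026). It lost the call without wild-type mouse 1 (adjusted p = 0.115), wild-type mouse 2 (0.115) or transgenic mouse 3 (0.076). Myc, encoding a growth-related transcription factor, had a log2 fold change of 0.42 (adjusted p = 0.070), and Fbxo33, encoding a ubiquitin ligase subunit, had −0.15 (adjusted p = 0.068), which was 0.0022 (adjusted p = 0.987) with GC offsets.

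Among 20 activity-induced effector genes none passed the adjusted threshold, 4 did at an unadjusted p under 0.05, all lower, and the median was −0.10, beside 7.10% and 27.8% of all genes at these thresholds. DESeq2's Wald test called 3 of them, beside 11.7% of all genes, and limma-voom 0. The 3 with the smallest p were Cpeb4, a regulator of translation (log2 fold change −0.37, adjusted p = 0.062), Ptgs2, the inducible cyclooxygenase (−0.44, adjusted p = 0.067), and Pcsk1, a prohormone convertase (−0.67, adjusted p = 0.094). Without a filter on low counts edgeR called all 3 (adjusted p = 0.019, 0.023 and 0.032), and Pcsk1 passed without wild-type mouse 3 (0.013). With GC offsets Cpeb4 was at −0.17 (adjusted p = 0.159) and Ptgs2 at −0.26 (0.176). These 3 had values below 0 while the 10 immediate early genes had values above 0, and the difference between the lists was not tested.

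The proteins that carry the calcium signal to these promoters were represented by 22 kinases, phosphatases and calmodulins, of which 2 rose and 1 fell (median −0.01), beside 7.10% of all genes passing in either direction. Camkk1, a kinase upstream of CaM kinases I and IV, rose from 160.5 ± 9.54 to 203.2 ± 12.03 CPM (log2 fold change 0.34, adjusted p = 0.029), and Map2k2, the ERK kinase MEK2, rose by 0.27 (adjusted p = 0.033). Camk4, the nuclear CaM kinase that phosphorylates CREB, fell from 34.9 ± 4.42 to 22.5 ± 2.45 CPM (log2 fold change −0.63, adjusted p = 0.027).

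Of 22 transcription factors and cofactors through which the signal acts, 1 rose and 0 fell, beside 3.10% of all genes that rose and 7.10% called in either direction, and the median was 0.08. This was Elk1, a partner of SRF at the serum response element, at 79.2 ± 6.42 CPM in the wild-type and 103.0 ± 5.70 CPM in the transgenic mice (log2 fold change 0.38, adjusted p = 0.029). Crtc2, a CREB coactivator (0.16, adjusted p = 0.096), and Mrtfa, an SRF coactivator (0.17, adjusted p = 0.117), did not pass, and with GC offsets their log2 fold changes were 0.09 and 0.07. The calls of Camkk1, Camk4, Map2k2 and Elk1 were each lost without wild-type mouse 1, wild-type mouse 2 or transgenic mouse 3, with adjusted p-values between 0.096 and 0.149. Without transgenic mouse 2 Camk4 (0.084), Elk1 (0.056) and Map2k2 (0.056) also lost theirs, as did Map2k2 without wild-type mouse 3 (0.056). With GC offsets Camkk1 (log2 fold change 0.28, adjusted p = 0.073) and Map2k2 (0.17, adjusted p = 0.114) did not pass.

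Of the 110 other list genes tested, 5 had a larger SD of log2 CPM between mice of one genotype than Nr4a1, namely Penk (0.95), Ccn2 (0.69), Tac1 (0.62), Rasd1 (0.58) and Dusp2 (0.50). The less variable genes stood out less, as 13 of the 110 had a larger SD than Fosb, 15 than Dusp1 and 20 than Junb. The 5 lists had median SDs between 0.09 and 0.19.

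The transcripts of the 10 genes are rich in GC (52.8% to 68.2%, against a median of 49.9% over all genes tested). Over all 6568 tested genes within that range, the median log2 fold change was 0.10 and 69.5% of values were above 0. With the trend of counts on GC content removed from each library, the median of the 10 genes fell from 0.25 to 0.14 and 9 of 10 values were above 0, Egr4 being the exception. The values of Egr1 (0.06), Npas4 (0.11), Nr4a1 (0.11) and Junb (0.16) then fell by a factor of over 1.5, and those of Fos (0.48), Fosb (0.40), Egr2 (0.87), Arc (0.37) and Dusp1 (0.08) by less. How far GC content contributed to the differences between genotypes was not tested.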

How the data were processed

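RNA from hippocampi of 3 wild-type and 3 transgenic mice was sequenced with 76-bp reads. Per the labels and methods, the authors trimmed reads with Trimmomatic, aligned them to mm10 with STAR and counted fragments on Ensembl 95 genes with featureCounts 1.5.0-p1 (reversely stranded, mapping quality of at least 3), and they deposited raw counts, which were not normalized. The members and gene lists were chosen with earlier results of these data known. Named are the 10 members, Orai1, the genes of each list with the smallest p (up to 5 per direction past the threshold, or 3 where fewer than 3 passed) and the 2 nearest genes of each member; the other variable list genes, the marker genes named and the leave-out of both mice numbered 1 were chosen after the values were seen.

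Genes were kept by filterByExpr (minimum count 10), scaled by TMM and tested on all 6 libraries with edgeR's quasi-likelihood test without covariates, with Benjamini-Hochberg adjustment and a threshold of 0.05. CPM are counts per 1000000 of the scaled total, log2 CPM had a prior count of 2, and FPKM used library totals and the deposited exonic lengths. On simulated counts of 18865 genes with 200 changed, this test found 74.5% of them, and 6.88% of its calls were false. The changed genes were drawn at random from all genes and all had the same size of change. The share found therefore does not carry over to the immediate early genes, whose spread between mice was wider. GC content came from GENCODE M21 transcripts on GRCm38 for 54723 of the 54838 genes. R 4.3.3, edgeR 4.0.16, DESeq2 1.42.0, limma 3.58.1 and Python 3.11.15 were used. No column of the authors' own comparisons was in the table. The intervals rest on the spread between these mice.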

Additional observations from a re-analysis of the deposited data

How the results depend on the processing

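With 3 mice per genotype and this spread between them, the 95% intervals were wide, that of Egr2 running from 0.702-fold to 5.02-fold and that of Fosb from 1.00-fold to 1.93-fold, and a p above the threshold does not show that levels were alike. None of the 10 genes passed the threshold under the other scalings (DESeq2's size factors, library totals, upper quartile), DESeq2's Wald test, limma-voom, either filter, GC offsets, without any 1 mouse or without both mice numbered 1. With the replicate number as a block 1 gene passed, Junb (log2 fold change 0.32, adjusted p = 0.048), which was at 0.17 (adjusted p = 0.197) with the block and GC offsets together and at 0.16 (0.626) with GC offsets alone. Deviations of same-numbered mice correlated at 0.40, −0.36 and 0.39 over 11191 genes, so the numbers were not taken to pair the mice, which are different animals.

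Egr4 turned to −0.065 with GC offsets, −0.079 with GC offsets and the replicate block, and −0.040 without both mice numbered 1. Leaving out 1 mouse at a time moved the log2 fold change between −0.27 and 0.48 for Egr1, −0.38 and 0.53 for Egr4, −0.20 and 0.50 for Npas4, −0.14 and 0.54 for Nr4a1 and −0.0022 and 0.41 for Dusp1, while those of Fos (0.24 to 1.38), Fosb (0.31 to 0.68), Junb (0.17 to 0.54), Egr2 (0.37 to 1.91) and Arc (0.11 to 0.80) stayed above 0. In these fits an arm of 2 mice shares the spread estimated over both genotypes. The count among the 5% of genes with the largest SD was 3 to 6 of 10 without 1 mouse and 2 without both mice numbered 1.

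The 1355 genes called over the whole table became 2230 with DESeq2's Wald test, 738 with the replicate block, 407 with GC offsets, 462 with both, 135 without both mice numbered 1, and 77 to 1149 without 1 mouse (77 without wild-type mouse 1, 94 without wild-type mouse 2, 192 without transgenic mouse 2 and 108 without transgenic mouse 3). The 5 calls in the other lists became 13 with DESeq2's Wald test, 11 with no filter, 3 with GC offsets, 0 without both mice numbered 1 and 0 to 6 without 1 mouse. Jund turned to −0.105 with GC offsets and −0.105 with the block as well, and Fbxo33 to 0.0022 and 0.00065. Among the named list genes the block also gave Ptgs2 an adjusted p of 0.036 and Map2k2 one of 0.054, and by itself it turned no direction among the named genes. The cause of these changes was not tested.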
